A study of Homo sapiens with 22 samples.

Results

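The regions described here are 30756 of the 82297 CTCF regions (37.4%) deposited for HFFc6 cells on chromosomes 1 to 22 and X of the hg38 build. Each overlaps by at least 1 bp a region of 3 further deposited lists, namely a CTCF list named for human embryonic stem cells (hESC), an open chromatin list of HFFc6 cells and an open chromatin list of H1 cells. They were thus chosen by the presence of overlapping peaks in all 4 lists, and are called shared open CTCF regions below. For that reason overlap and peak strength in those lists are descriptions of the regions and were not tested.

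HFFc6 is a subclone of human foreskin fibroblasts immortalised with telomerase, so it stands for a single clone of 1 cell type, and H1 is a line of human embryonic stem cells. Neither line carried a treatment according to the labels. HFFc6 CTCF came from Cut&Tag, in which an antibody-tethered transposase cuts the DNA beside CTCF, with 2 libraries whose titles begin with HFF1 although the cell line is given as HFFc6. HFFc6 open chromatin came from 8 ATAC-seq libraries and H1 open chromatin from 2, an assay in which free transposase cuts accessible DNA. The hESC-named CTCF list matches no sample label, and the sources used here do not give its line, assay or libraries. Each list is a single call for its group, so no value below has replicates. The other 10 of the 22 libraries (cohesin subunit SMC1 and the histone marks H3K4me3 and H3K27ac) were not used here.

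CTCF is a zinc finger protein that binds a long GC-rich DNA motif. It halts the cohesin ring as cohesin extrudes chromatin loops, so many of its sites lie at loop anchors and at the borders of topological domains, and the direction of the motif sets which side of a site faces the loop. Many CTCF sites are occupied in most cell types and lie in short stretches of open DNA, and CTCF also binds at promoters, where chromatin is open for transcription.

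Sequences from 8 promoters show matches to the CTCF core motif beneath these regions. They are the promoter windows with a motif lying wholly before the gene start that sit under the strongest HFFc6 CTCF regions, and they come from the RefSeq promoter table (GRCh38.p14), written 5′ to 3′ on the strand of the gene. The capitals mark the CTCF core motif searched here, 12 bases of which 8 are fixed and 4 may be any base, or its reverse complement in SLC14A2. Such matches also lay in 1.53% of promoter windows outside all 4 lists, and whether CTCF binds at the marked letters was not tested.
POLR2J3-UPK3BL2: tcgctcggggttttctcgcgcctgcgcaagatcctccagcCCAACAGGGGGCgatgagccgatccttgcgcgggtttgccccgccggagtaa
HLCS: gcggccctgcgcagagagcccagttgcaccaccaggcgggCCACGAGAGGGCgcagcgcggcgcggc
CCDC59: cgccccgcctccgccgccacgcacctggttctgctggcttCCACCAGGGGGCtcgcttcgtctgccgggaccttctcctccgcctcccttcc
KIF1B: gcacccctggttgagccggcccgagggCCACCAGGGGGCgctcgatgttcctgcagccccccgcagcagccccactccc
SLC14A2: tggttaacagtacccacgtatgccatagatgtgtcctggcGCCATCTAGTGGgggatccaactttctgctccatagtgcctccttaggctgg
KATNBL1: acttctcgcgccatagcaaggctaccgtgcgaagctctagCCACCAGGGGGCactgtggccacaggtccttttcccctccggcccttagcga
LOC102724497: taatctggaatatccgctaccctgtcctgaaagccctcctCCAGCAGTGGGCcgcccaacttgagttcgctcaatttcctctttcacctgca
LRRC56: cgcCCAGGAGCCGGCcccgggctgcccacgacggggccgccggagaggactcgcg
The POLR2J3-UPK3BL2 stretch lies at chr7:102572601-102572692 on the minus strand and the HLCS stretch at chr21:36990212-36990278 on the minus strand. The CCDC59 stretch lies at chr12:82358849-82358940 on the minus strand, the KIF1B stretch at chr1:10210320-10210398 on the plus strand and the SLC14A2 stretch at chr18:45212874-45212965 on the plus strand. KATNBL1 is shown over chr15:34210152-34210243 on the minus strand, LOC102724497 over chr2:74715096-74715187 on the plus strand and LRRC56 over chr11:518738-518792 on the plus strand. The letters CCACCAGGGGGC stand at CCDC59, KIF1B and KATNBL1.

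The first of these promoters had high deposited values in all 4 lists, but reads from near-identical gene copies were not checked for there. The shared open CTCF region over POLR2J3 and the long non-coding gene POLR2J3-UPK3BL2, chr7:102572198-102573061, had a deposited fold enrichment of 22.3 in HFFc6 CTCF, 47.9 in hESC-named CTCF, 27.1 in HFFc6 ATAC and 33.5 in H1 ATAC. Fold enrichment, a value deposited by the authors, relates the signal of a peak to its local background, and it can be ranked within a list but not set against another list. The centre of the motif lay 0.5 bp from the HFFc6 CTCF summit there, and 55.5 bp from the hESC-named CTCF summit. At KIF1B, a kinesin motor gene, the fold enrichment was 20.6 in HFFc6 CTCF, 22.4 in hESC-named CTCF, 13.1 in HFFc6 ATAC and 12.9 in H1 ATAC, with the motif 40.5 bp from the HFFc6 CTCF summit. At HLCS, which encodes the enzyme that attaches biotin to carboxylases, it was 21.4 in HFFc6 CTCF, 18.2 in hESC-named CTCF, 19.9 in HFFc6 ATAC and 7.19 in H1 ATAC. The motif of CCDC59 lay farther off, 293.5 bp from the HFFc6 CTCF summit and 286.5 bp from the hESC-named one, in a window that held 2 matches. That of LOC102724497 lay 270.5 bp from the HFFc6 CTCF summit and 55.5 bp from the hESC-named one.

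Shared open CTCF regions were the widest and, by the authors' values, the strongest class of HFFc6 CTCF regions shared with the hESC-named list. Their median HFFc6 CTCF fold enrichment was 9.16 (quartiles 6.42 and 11.8) and their median width 970 bp. Shared regions open in HFFc6 only (4015) had a median of 6.86 and 765 bp, those open in H1 only (4622) 5.35 and 620 bp, and those open in neither line (2514) 4.87 and 540 bp. The 6822 HFFc6 CTCF regions open in both lines but absent from the hESC-named list had a median of 5.46 and 665 bp. Within each whole list the shared open regions ranked high, with median percentiles of 73.7 in HFFc6 CTCF, 73.8 in hESC-named CTCF, 70.5 in HFFc6 ATAC and 81.5 in H1 ATAC. In 15021 of them (48.8%) all 4 values lay above the median of the list, and 516 (1.68%) were in the top 10% of all 4 lists.

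At the limit of the rule, 56 members had a smallest overlap of 10 bp or less, with a median fold enrichment of 3.71 and a median width of 582 bp. Just outside it, 30 regions missed a single list by a gap of 10 bp or less, and these had a median of 4.41 and a width of 568.5 bp. Most overlaps were far longer, with medians of 609 bp with hESC-named CTCF, 777 bp with HFFc6 ATAC and 463 bp with H1 ATAC. When each overlap had to cover 50% of the HFFc6 CTCF region, 11902 regions remained, and counts below shrink with it where stated. Exactly 1 region was met by 95.2% of the members in the hESC-named CTCF list, by 99.2% in HFFc6 ATAC and by 89.1% in H1 ATAC. The median region was 707 bp wide in the HFFc6 ATAC list and 301 bp wide in the H1 ATAC list. Seen from the other lists, the members met 30.8% of hESC-named CTCF regions, 19.7% of HFFc6 ATAC regions and 18.1% of H1 ATAC regions.

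A large part of the shared open CTCF regions lay at gene starts. Starts were taken from the RefSeq promoter table, and for genes without an entry either end of the gene counted as its start. Within 1 kb of a start so defined, of a protein-coding or long non-coding gene, lay 12258 regions, 39.9% ± 5.28 (SD over 22 autosomes), while 35.4% ± 2.98 lay elsewhere in a gene and 24.7% ± 3.14 between genes. The order of the first locations turned with starts from the promoter table alone, a setting chosen after the data were seen, which put 32.6% at starts, 41.9% elsewhere in a gene and 25.5% between genes. No start of chromosome 8 was used in that setting, so its regions count there as away from starts. By the main definition of starts, 21.2% of all 82297 HFFc6 CTCF regions, the shared open ones included, lay at a start. The share at gene starts was 28.4% ± 6.67 among HFFc6-only CTCF regions open in both lines, 10.1% ± 2.66 among shared regions open in H1 only, 7.57% ± 4.29 among those open in HFFc6 only and 4.81% ± 4.10 among those open in neither. Among other HFFc6-only regions it was 19.7% ± 7.32 (open in H1 only), 6.85% ± 2.05 (open in HFFc6 only) and 7.41% ± 2.95 (open in neither). The shared open share was the higher one on 22 of 23 chromosomes against the HFFc6-only regions open in both lines, and on 23 of 23 against each of the 3 other shared classes. Chromosomes are not replicates of the samples, so these counts describe how evenly the difference ran over the genome. With starts from the promoter table alone the share was 32.6% in shared open regions, 22.4% in HFFc6-only regions open in both lines and 6.30% in shared regions open in H1 only. Counting only regions whose HFFc6 CTCF summit lay within 1 kb of a start, a setting chosen after the data were seen, the share was 37.4% ± 4.996 in shared open regions, 26.0% ± 6.36 in HFFc6-only regions open in both lines and 8.16% ± 2.47 in shared regions open in H1 only.

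**Figure D1:**
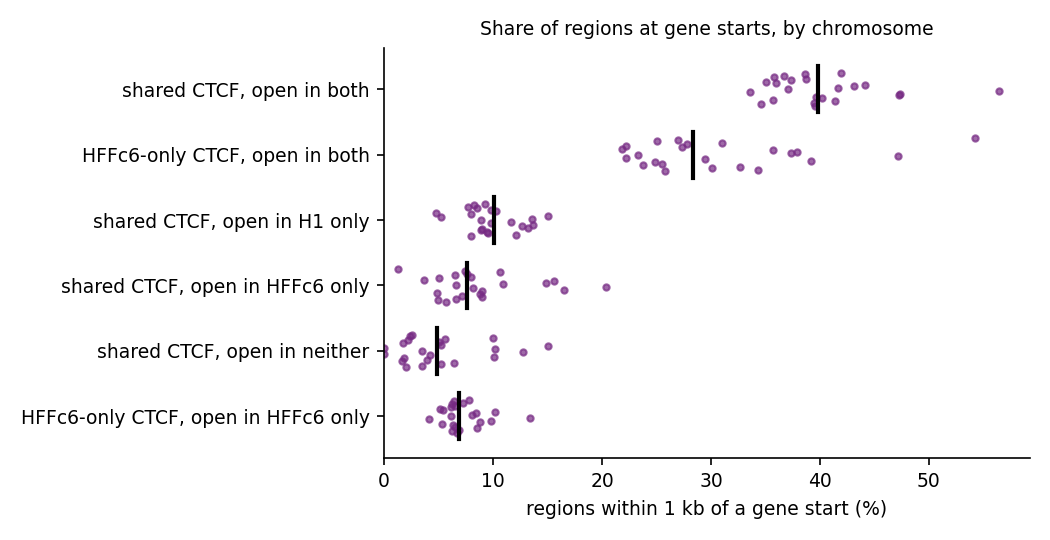
Share of HFFc6 CTCF regions within 1 kb of a gene start (x axis, percent) in 6 classes of region (y axis). Each point is 1 of 23 chromosomes and each black bar is the share over all chromosomes together. The shared open regions stand at 39.9%, with chromosome 19 at the far right at 56.4%.

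Some of these starts faced a neighbour. Of 10023 shared open regions at a start of known strand, 2149 (21.4% ± 3.21, SD over the autosomes with such starts) lay at a pair of divergent genes. Such genes are transcribed away from each other from adjoining promoters. Chromosome 8 had no start of known strand. The share was 13.1% ± 3.88 of 1529 among HFFc6-only CTCF regions open in both lines. It was lower than in shared open regions on all 22 chromosomes with such starts. Among shared open regions at known starts, the median HFFc6 CTCF fold enrichment was 10.2 at divergent pairs and 9.28 at other starts.

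The shared open regions were unevenly spread over the chromosomes. Their number per Mb averaged 10.4, with a median of 36.1 kb from a region to the next and 16.3% of neighbours within 10 kb. On chromosome 19, the most gene-dense, they made up 47.2% of HFFc6 CTCF regions and 56.4% of them were at gene starts, whereas on chromosome 21 they made up 28.5%. Chromosome 19 had 25.3 per Mb and 101.7 per 100 protein-coding genes, and chromosome 18 had 6.95 per Mb and 206.3 per 100 genes. Chromosome X had the fewest by both measures, 4.90 per Mb and 89.98 per 100 genes. The whole HFFc6 CTCF list was uneven too, with 3125 regions over 58.4 Mb of chromosome 19 and 1910 over 155.8 Mb of X. Shared open regions made up 39.9% of HFFc6 CTCF regions on X, against a median of 36.5% over the chromosomes. The densest 1 Mb window, chr17:7000000-7999999, held 57 of them among 64 protein-coding genes. The window chr6:26000000-26999999, which holds much of the main histone gene cluster, held 53 among 42 protein-coding genes.

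Both CTCF lists were called at gene starts, but among shared open regions the authors' strength values differed in where they were high. In HFFc6 CTCF the median fold enrichment of shared open regions was 9.44 at gene starts and 8.98 away from them. In the hESC-named CTCF list it was 8.998 at gene starts and 15.4 away from them, lower at starts on 23 of 23 chromosomes. The medians by chromosome ran from 7.66 to 11.1 at starts and from 14.1 to 16.5 away from them, with no overlap. Over the whole hESC-named list the direction was the other one, with a median of 7.07 at starts and 6.78 away from them, so the lower value at starts holds for the shared open regions and not for that list. In HFFc6 ATAC the median was 12.02 at starts and 7.98 away from them, higher at starts on 23 of 23 chromosomes, and in H1 ATAC it was 11.3 and 10.8. The small HFFc6 CTCF difference turned round when the lists were cut to equal length (9.95 at starts, 10.2 away from them), whereas the hESC-named difference lay between -5.06 and -6.53 in the 7 alternatives that could move it. Since the sources used here give no assay for the hESC-named list, its cell line and its assay cannot be told apart in this contrast.

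**Figure D2:**
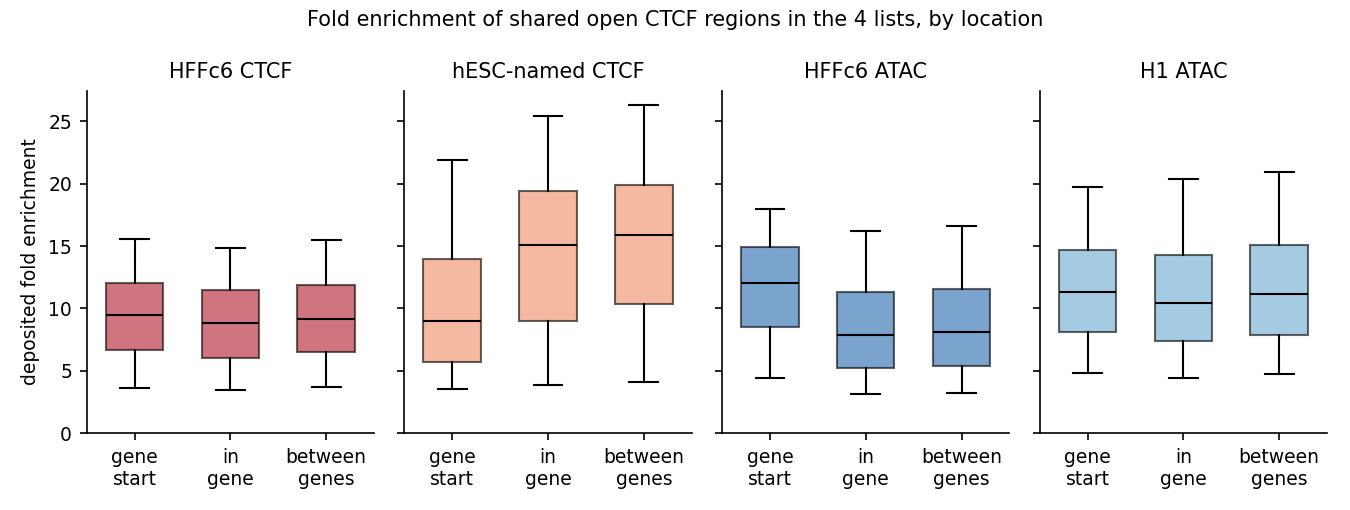
Deposited fold enrichment (y axis) of the shared open CTCF regions at gene starts, elsewhere in genes and between genes, in the 4 lists. Boxes span the quartiles with the median as a line, and whiskers run from the 5th to the 95th percentile. The hESC-named CTCF boxes are lowest at gene starts and the HFFc6 ATAC boxes highest there, and levels are not comparable between panels.

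Across the 30756 regions the strength of HFFc6 CTCF followed that of HFFc6 ATAC (Spearman's rho 0.483), of hESC-named CTCF (0.414) and of H1 ATAC (0.411). Between hESC-named CTCF and H1 ATAC rho was 0.331. Between hESC-named CTCF and HFFc6 ATAC it was -0.109 over all regions, but 0.145 at gene starts, -0.0397 in genes and -0.0204 between genes. At gene starts alone HFFc6 ATAC and H1 ATAC had a rho of 0.627, and between genes 0.288. These are correlations across regions, which share cell lines, libraries and base composition, and they are given with no p. HFFc6 CTCF and both ATAC assays also share the cutting enzyme, and its part in these values was not tested. From the lowest to the highest of 5 bins of HFFc6 ATAC fold enrichment (6150 to 6153 regions each) the median HFFc6 CTCF fold enrichment was 6.51, 7.96, 8.99, 10.4 and 11.8. Over the same bins the median hESC-named CTCF fold enrichment was 14.3, 13.99, 12.7, 11.4 and 11.01, and the share at gene starts was 17.9%, 27.2%, 37.9%, 52.2% and 64.2%. The share at gene starts thus changed along these bins together with both CTCF values.

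Summits, the points of highest signal in a region, lay close together in all 4 lists. The median distance from the HFFc6 CTCF summit was 50 bp to the HFFc6 ATAC summit (quartiles 11 and 117 bp), 61 bp to the H1 ATAC summit (21 and 141 bp) and 100 bp to the hESC-named CTCF summit (45 and 177 bp). Overlap bounds these distances from above, since it was required. The HFFc6 CTCF and hESC-named CTCF summits thus lay farther apart than the summits of HFFc6 CTCF and of either ATAC list. The summits of the 2 ATAC lists lay 43 bp apart. The hESC-named CTCF summit was 72 bp from the H1 ATAC summit and 90 bp from the HFFc6 ATAC summit.

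The summits of HFFc6-only CTCF regions open in both lines lay farther from both ATAC summits, at medians of 72 bp from HFFc6 ATAC and 120 bp from H1 ATAC. The distance between both CTCF summits in other shared regions was 101 bp where only HFFc6 was open, 81 bp where only H1 was open and 81 bp where neither was. Among shared open regions, the distances from the HFFc6 CTCF summit to the summits of the other lists were longest at gene starts. Regions were also wider there, with a median of 1092 bp against 889 bp away from starts. The HFFc6 CTCF summit lay 115 bp from the hESC-named CTCF summit at starts, 90 bp in genes and 94 bp between genes, and 74, 38 and 37 bp from the HFFc6 ATAC summit.

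**Figure D3:**
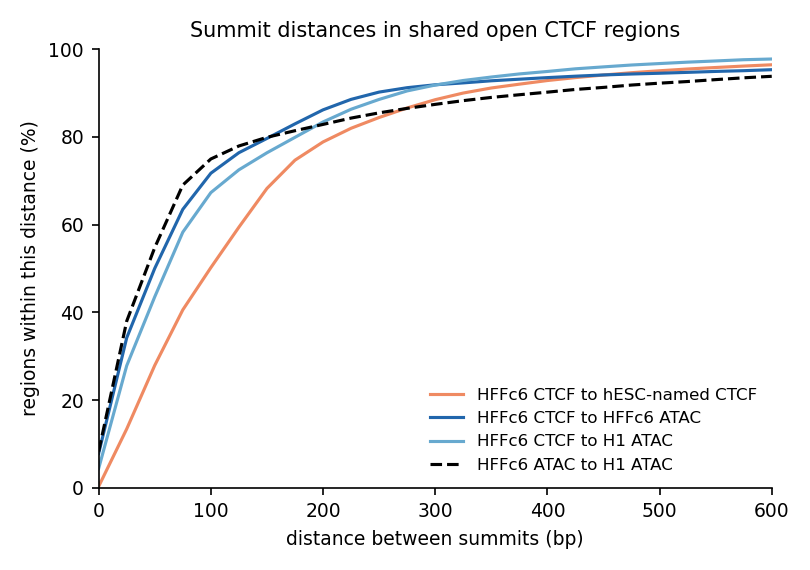
Cumulative share of the 30756 shared open CTCF regions (y axis, percent) by distance between the summits of 2 lists (x axis, bp). The curve for HFFc6 CTCF against hESC-named CTCF lies below the others up to 250 bp and reaches 50.2% at 100 bp, where HFFc6 CTCF against HFFc6 ATAC reaches 71.7%.

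Around gene starts the 4 summits took different places. At the 10023 regions with a start of known strand, the median HFFc6 CTCF summit lay at -19 bp in the direction of the gene, the hESC-named CTCF summit at -101 bp, the HFFc6 ATAC summit at -53 bp and the H1 ATAC summit at -68 bp. HFFc6 CTCF summits were within 250 bp upstream in 39.4% of regions and within 250 bp downstream in 33.8%. For hESC-named CTCF the shares were 47.6% and 16.0%, for HFFc6 ATAC 57.3% and 18.4%, and for H1 ATAC 55.5% and 14.9%. HFFc6 CTCF was thus the list with summits most often just inside the gene.

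Over all GC contents together, the CTCF core motif was commoner beneath shared open regions than beneath other open promoters. The core motif of 8 fixed bases was searched on both strands of 34789 RefSeq promoter windows of 300 bases (250 before to 50 after a start), and 2.42% of all windows held it. Windows inside a shared open CTCF region held the motif in 431 of 11173 cases, or 3.86% (95% Wilson interval 3.52 to 4.23). Windows inside an HFFc6-only CTCF region open in both lines held it in 10 of 896, or 1.12% (0.607 to 2.04). Windows open in both lines with neither CTCF list held it in 16 of 862, or 1.86% (1.15 to 2.99), and windows in none of the 4 lists in 185 of 12054, or 1.53% (1.33 to 1.77). The intervals cover counting error only, and windows of neighbouring starts of a gene overlap, so they are too narrow.

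Base composition differed little among the open sets, with mean GC contents of 65.8% in windows inside shared open regions, 67.2% in HFFc6-only regions and 63.0% in open windows without CTCF, and was 47.9% in windows outside all lists. At a GC content of 65% or more, the motif was in 3.77% of windows inside shared open regions (3.33 to 4.26), 1.54% in HFFc6-only regions (0.811 to 2.90) and 0.969% in open windows without CTCF (0.377 to 2.46). Between 55% and 65% the shared open share was 3.48% (2.93 to 4.13) and that of open windows without CTCF 3.63% (1.77 to 7.30), so no difference between these sets was detectable there at this number of windows. In HFFc6-only regions it was 1 of 198, or 0.505% (0.0892 to 2.80). Windows in none of the 4 lists held the motif in 3.56% (2.88 to 4.40) between 55% and 65%, and in 2.26% (1.48 to 3.42) at 65% or more. Below 55% the share was 5.61% (4.40 to 7.13) in shared open regions and 1.95% (0.837 to 4.49) in open windows without CTCF, intervals that overlap. It was 0 of 113 in HFFc6-only regions (up to 3.29%) and 0.929% (0.750 to 1.15) outside all lists. Mean GC content below 55% was 49.6% inside shared open regions and 42.5% outside all lists. A stricter form of the motif with 10 fixed bases was in 92 windows inside shared open regions (0.823%). It was in 0 of 896 windows inside HFFc6-only regions, which allows a share of up to 0.335% (3 counts of the total, with a Wilson upper bound of 0.427%), and in 0 of 862 open windows without CTCF, which allows up to 0.348% (0.444%). A match is a description of the letters, and most windows beneath these regions held none in this stretch. No genome was used here, so regions away from promoters were not searched.

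Regions with the motif in a promoter window were stronger in both CTCF lists and not in the ATAC lists. In 376 shared open regions with a match the median fold enrichment was 11.6 in HFFc6 CTCF and 13.2 in hESC-named CTCF, against 9.97 and 9.02 in 7377 without one. In HFFc6 ATAC it was 12.5 with a match and 13.0 without, and in H1 ATAC 11.9 and 12.1.

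The 2 CTCF lists also differed in the side of the motif on which their summits lay more often. Over the 366 shared open regions with a single match, read in the direction of the motif as written and within 200 bp of it, the HFFc6 CTCF summit lay before the motif in 110 and after it in 170, with a median of 31.5 bp after it. The hESC-named CTCF summit lay before it in 162 and after it in 110, with a median of -32.5 bp. In the 241 regions where both summits lay within 200 bp, the hESC-named summit came before the HFFc6 one in 163 and after it in 77. ATAC summits lay after the motif in 168 regions and before it in 127 in HFFc6, and after it in 162 and before it in 134 in H1. The median distance from the motif without direction was 81 bp for HFFc6 CTCF, 97.5 bp for hESC-named CTCF, 78 bp for HFFc6 ATAC and 60.5 bp for H1 ATAC. The offset of the 2 CTCF summits was not tested against their assays, since 1 of these is not given.

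**Figure D4:**
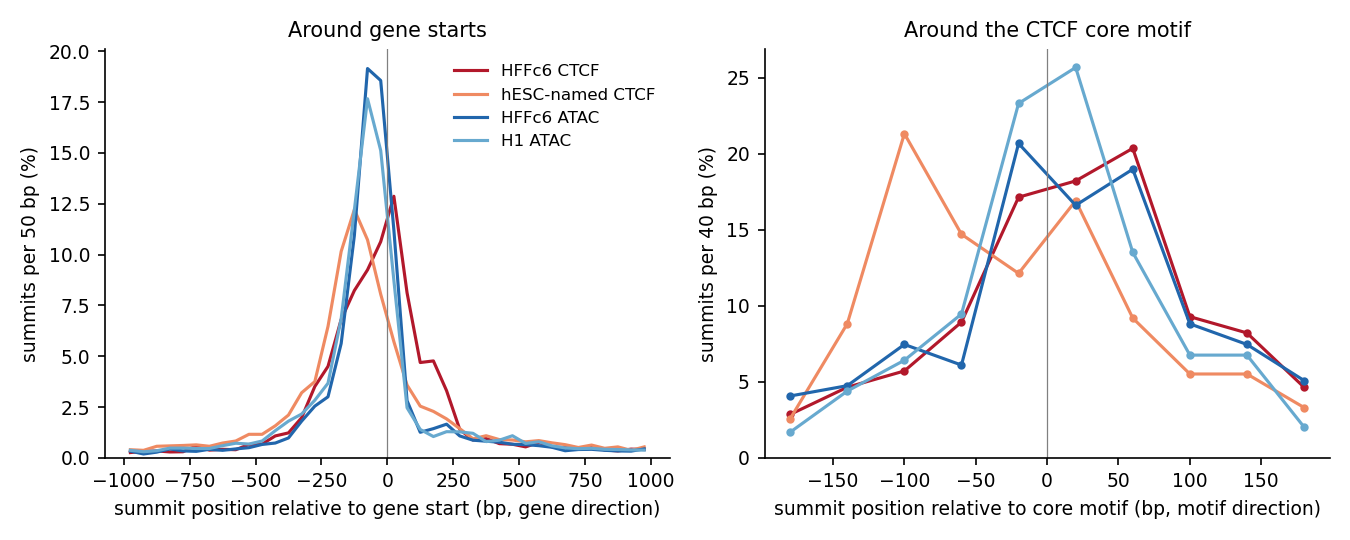
Summit positions in shared open CTCF regions for the 4 lists: left, share of summits per 50 bp (y axis, percent) around gene starts of known strand in the direction of the gene; right, share per 40 bp around the core motif in the direction of the motif, for summits within 200 bp of it. The hESC-named CTCF curve is shifted to the upstream side in both panels, with a median of -101 bp at starts and -32.5 bp at the motif.

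Of 19974 protein-coding genes, 11495 (57.5%) had a shared open CTCF region within 1 kb of the start. Of the 13995 genes with an ATAC region of both lines at the start, 11408 (81.5%) had one. With the 50% overlap the share of all genes was 29.2%. Among the 2587 genes open in both lines with no shared open CTCF region at the start, 2154 had some CTCF region there and 433 had none. The gene lists below were read against these shares. Where a gene has no entry in the promoter table, a region at its start is one at either end of the gene, and the gene table used gives no strand to tell which end is the start.

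Most genes that nearly every cell uses had such a region by the 1 bp rule. It was at the start of 30 of 30 proteasome core genes, which encode the main protein-degrading complex, 15 of 15 housekeeping reference genes, 75 of 79 cytosolic ribosomal protein genes and 32 of 34 DNA replication genes. These shares depend on the overlap required. At 50% overlap they were 50% of proteasome, 26.7% of housekeeping, 48.1% of ribosomal protein and 55.9% of replication genes, so the housekeeping share was then below the 29.2% of all genes. RPS14, a small ribosomal subunit protein, had fold enrichments of 18.5 in HFFc6 CTCF, 18.7 in hESC-named CTCF, 13.7 in HFFc6 ATAC and 12.9 in H1 ATAC. RPL26, a large subunit protein, had 15.5 in HFFc6 CTCF and 34.2 in hESC-named CTCF, the highest hESC-named value of the ribosomal list. RPS27 had 1.99 in HFFc6 CTCF and 3.85 in hESC-named CTCF, the lowest HFFc6 value of the list. PCNA, the sliding clamp of DNA polymerase, had 16.1 and 14.1, and GAPDH, a glycolytic enzyme, 4.00 and 3.89. Among the ribosomal exceptions, RPL14, RPS21 and FAU had HFFc6 CTCF and open chromatin of both lines at the start but no hESC-named CTCF. Several ribosomal protein genes have processed pseudogenes elsewhere, and the sources used here do not say how reads were assigned between copies.

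Genes of the CTCF and cohesin machinery carried shared open regions at 16 of 18 starts (88.9%). As all 18 were open in both lines at the start, this share lies near the 81.5% of all such genes. At 50% overlap the share of the list was 55.6%, against 29.2% of all genes. CTCF itself had fold enrichments of 12.8 in HFFc6 CTCF, 13.1 in hESC-named CTCF, 13.3 in HFFc6 ATAC and 8.996 in H1 ATAC. STAG1, a cohesin subunit, had 15.03 in HFFc6 CTCF and 20.1 in hESC-named CTCF, and RAD21, the subunit that closes the cohesin ring, 11.9 and 11.7. ESCO1, which acetylates cohesin, had the highest HFFc6 CTCF value of the list at 17.3, with 15.5 in hESC-named CTCF. WAPL, which releases cohesin from DNA, had 9.06 in HFFc6 CTCF and 2.85 in hESC-named CTCF, with summits 573 bp apart. ESCO2 and YY1 had none. At ESCO2 the hESC-named CTCF list had no region, and at YY1 each list had a region near the start, but no HFFc6 CTCF region there met all 3 others.

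Lists of genes that mark a line had different shares. Of 26 fibroblast matrix and surface genes, 18 had a shared open region at the start, with a median HFFc6 CTCF fold enrichment of 6.17 and a median hESC-named value of 7.19. Of the 23 fibroblast genes open in both lines 18 had one, near the 81.5% of all such genes, and at 50% overlap the share of the list was 19.2%, below the 29.2% of all genes. COL1A1, the main fibrillar collagen chain, had 9.93 in HFFc6 CTCF, 19.4 in hESC-named CTCF, 5.24 in HFFc6 ATAC and 8.08 in H1 ATAC. LOX, which crosslinks collagen, had 9.004 in HFFc6 CTCF and 26.3 in hESC-named CTCF, and COL5A2, a type V collagen chain, 16.4 and 10.0001. The 8 without one were COL3A1, COL6A3, FBN1, POSTN, DCN, LUM, THY1 and FAP. Mesenchymal transcription factors had one at 16 of 20 starts, and as all 20 were open in both lines this share lies near the 81.5% too. It was below that of all genes at 50% overlap (15%, against 29.2%), at −log10 q of at least 10 (30%, against 44.2%), with 250 bp to either side of the summits (45%, against 50.1%) and with lists of equal length (45%, against 50.9%). In this list SNAI2, a driver of epithelial to mesenchymal transition, had 11.3 in HFFc6 CTCF and 10.8 in hESC-named CTCF. TWIST1, PRRX1, TCF21 and TBX15 had none. COL1A1, COL5A2 and SNAI2 have no entry in the promoter table, nor have RAD21 and ESCO1 above or SALL4 below.

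Pluripotency genes seldom had one, with 4 of 24 starts. These were LIN28B, DNMT3B, SALL4 and ZSCAN10. Only 8 of the 24 genes were open in both lines at the start, and 5 of these 8 had no shared open region. The share of the list, 16.7%, depended on the settings. It was 0% at 50% overlap (29.2% of all genes), 4.17% with a 500 bp window (55.8%) and 4.17% with lists of equal length (50.9%). LIN28B, an RNA-binding protein of early development, had 14.3 in HFFc6 CTCF, 9.64 in hESC-named CTCF, 2.66 in HFFc6 ATAC and 10.4 in H1 ATAC. SALL4, a zinc finger factor of the pluripotency network, had 8.52 in HFFc6 CTCF, 10.7 in hESC-named CTCF, 4.18 in HFFc6 ATAC and 8.72 in H1 ATAC. A further 12 genes, with NANOG, LIN28A, PRDM14 and OTX2 among them, had hESC-named CTCF but no HFFc6 CTCF at the start. An ATAC region lay at 9 of these 24 starts in HFFc6 and at 21 in H1, whereas for the fibroblast genes it lay at 25 of 26 in HFFc6 and 23 in H1.

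Markers of other cell types mostly lacked these regions. None was at the start of the 10 keratinocyte genes or of the 20 olfactory receptor genes of chromosome 11, of which 15 had no ATAC region of either line. In both lists 0 genes were open in both lines at the start, so the rule all but fixed these counts in advance. A shared open region was at the start of 2 of 10 neural progenitor genes, NES and LHX2, and of 3 of 7 melanocyte genes, MITF, DCT and PMEL, the last of which has no entry in the promoter table. One end of 1 of 10 blood genes (SPI1) and of 2 of 8 endothelial genes (PECAM1 and CLDN5) had one, but these 3 genes have no entry in the promoter table, so whether the region lies at their start is not known here. Among the 5 blood and the 4 endothelial genes with an entry, 0 had one. Only 6 neural progenitor, 3 melanocyte, 3 blood and 4 endothelial genes were open in both lines at the start. Of these, 4, 0, 2 and 3 had no shared open region, so the low shares go in part with a lack of open chromatin.

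**Figure D5:**
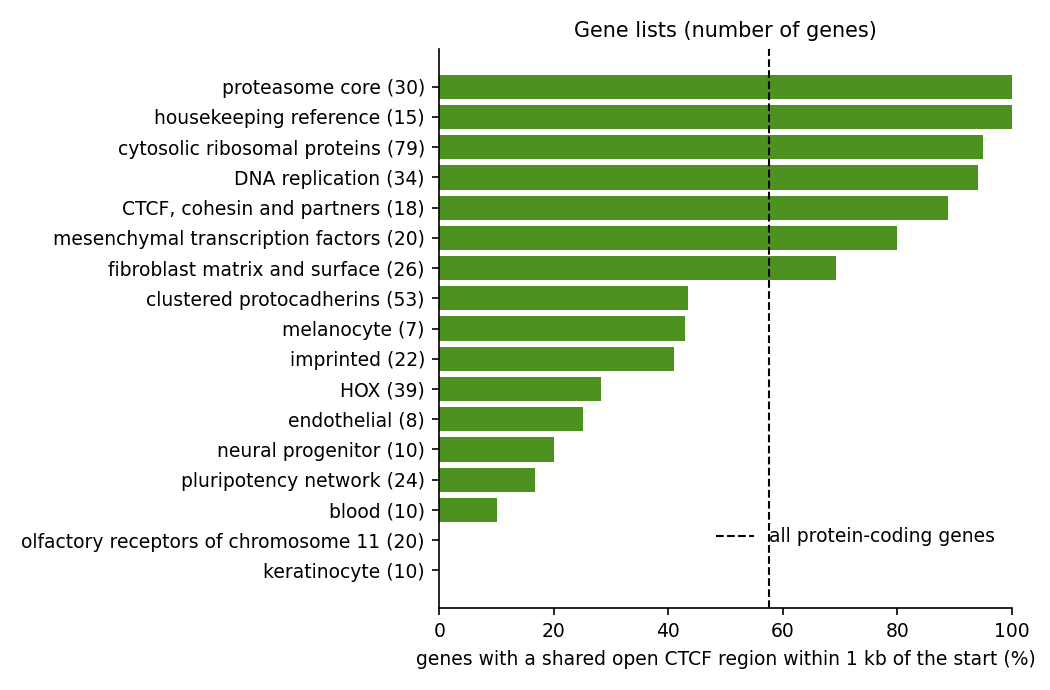
Share of the genes of 17 lists with a shared open CTCF region within 1 kb of the start, or of either end for genes without a promoter entry (x axis, percent), with the number of genes in brackets. The dashed line is the share of all protein-coding genes, 57.5%. The lists of broadly used genes lie between 94.1% and 100%, the fibroblast list at 69.2% and the pluripotency list at 16.7%.

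Gene clusters known for CTCF-dependent organisation had lower shares than the 57.5% of all protein-coding genes. These were 43.4% of clustered protocadherins, 28.2% of HOX genes and 40.9% of imprinted genes. Among those open in both lines at the start, 7 of 30 protocadherins, 11 of 21 HOX and 5 of 14 imprinted genes lacked such a region. Over all protein-coding genes open in both lines, 2587 of 13995 lacked one. Clustered protocadherins, neuronal adhesion genes whose alternative promoters are chosen with the help of CTCF, had a shared open region at 23 of 53 starts in 22 distinct regions. In 18 of the 23 genes the hESC-named CTCF value was numerically above the HFFc6 CTCF value, but the scales of the lists are not comparable. PCDHB15 had 8.58 in HFFc6 CTCF, 29.7 in hESC-named CTCF, 4.31 in HFFc6 ATAC and 9.31 in H1 ATAC. PCDHGB5 had 14.1 in HFFc6 CTCF and 11.1 in hESC-named CTCF. A further 13 protocadherin starts had hESC-named CTCF only. These genes are near-identical copies in part, so reads could be split between them.

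HOX genes, which set position along the body axis, had one at 11 of 39 starts in 8 distinct regions, since HOXC4, HOXC5 and HOXC6 shared 1 and HOXB5 and HOXB6 another. For several, HOXA5, HOXB5, HOXB6, HOXC6 and HOXC10 among them, it lay at an end of a gene with no entry in the promoter table, and among the 20 HOX genes with an entry 5 had one. HOXA5 had 9.74 in HFFc6 CTCF and 15.5 in hESC-named CTCF, and HOXA10 had 8.75 and 17.8. No gene of the HOXD cluster had one. Imprinted genes had one at 9 of 22 starts. IGF2, a growth factor gene expressed from the paternal copy, had 5.29 in HFFc6 CTCF, 20.4 in hESC-named CTCF, 3.73 in HFFc6 ATAC and 5.46 in H1 ATAC. GRB10, a signalling adaptor, had 14.1 in HFFc6 CTCF and 6.31 in hESC-named CTCF. PEG10 and SGCE, which start beside each other, shared a single region. IGF2, PEG10 and SGCE have no entry in the promoter table.

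Counted over whole genes and 1 kb to either side, 13958 protein-coding genes (69.9%) held at least 1 shared open region, 8603 of them exactly 1 and 477 at least 5. GPHN, which encodes the scaffold protein gephyrin of inhibitory synapses, held 21 of its 42 HFFc6 CTCF regions as shared open ones, and NTM, a neuronal adhesion gene, 19 of 33. GSE1 held 16 of 64, and DLGAP1, a postsynaptic scaffold gene, 14 of 29. DST, FRMD4A, KAZN, NAV2 and SYN3 held 13 each and CAMTA1 held 12, as did IQCJ-SCHIP1, MACF1, PALLD and PDE4D. The 10 highest genes were long, with a median length of 867.8 kb against 24.2 kb over all protein-coding genes.

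The region strongest across all lists was chr17:43251452-43252268, at an annotated small nuclear RNA gene (LOC124904138) and 20183 bp from CCDC200, the nearest protein-coding gene. Its fold enrichment was 37.5 in HFFc6 CTCF, 48.5 in hESC-named CTCF, 43.6 in HFFc6 ATAC and 63.9 in H1 ATAC, the highest of all regions in HFFc6 CTCF, HFFc6 ATAC and H1 ATAC. All 4 summits lay within 2 bp of the HFFc6 CTCF summit. Whether reads from other copies of this small nuclear RNA gene add to these values was not tested. By the lowest of its 4 percentiles it was followed by the POLR2J3 region above, by chr15:82445176-82445958, 6023 bp from GOLGA6L9, and by chr13:52236004-52236643 at the pseudogene TPTE2P2. Next came regions in ATP8B4, at FAM72A and SRGAP2, at MCM10, in FAM111A-DT, near EIF1AD and at ASNSD1 and ASDURF. At MCM10, a DNA replication factor, the values were 17.9 in HFFc6 CTCF, 26.3 in hESC-named CTCF, 18.6 in HFFc6 ATAC and 23.7 in H1 ATAC.

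By HFFc6 CTCF alone the next strongest was chr19:47941141-47941720, 25538 bp from BSPH1, at 33.2, with 52.2 in hESC-named CTCF but 12.1 in HFFc6 ATAC and 13.8 in H1 ATAC. The others of the top 10 lay nearest to TCAF1 (29.1), GOLGA6L10 (28.8), LONRF1 (27.9), CTAGE15 (27.8), LIMS4 (26.95), LOC124903544 (25.05), PRAMEF22 (24.97) and GTF2IRD2B (24.5). Those of LOC124903544 and GTF2IRD2B met the gene, while the rest lay from 8150 bp (CTAGE15) to 119980 bp (LONRF1) away from it. At GTF2IRD2B the hESC-named CTCF value was 4.71, so a top HFFc6 value did not come with a high hESC-named value there. Many of these genes, such as the GOLGA6L, FAM72, GTF2IRD2 and PRAMEF families, have near-identical copies, so peaks called at them or in their neighbourhood are uncertain. The same caution applies to the top-ranked regions at LOC124904138, POLR2J3 and the pseudogene TPTE2P2. Read assignment between copies was not tested at any of them.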

How the data were processed

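The deposited data were 4 narrowPeak lists on hg38. Alignment with BWA, peak calling with MACS2 and use of bedtools are named per the submitters' processing notes, with versions, filters and controls not given in the sources used here. Within the deposited lists each peak has a score, a fold enrichment ratio over local background and −log10 p and q values by the authors' peak caller, and a summit offset. The lists pool libraries, so read depth is unknown. Largest q values in the lists correspond to a limit of 0.05. HFFc6 CTCF held 82297 regions, hESC-named CTCF 104785, HFFc6 ATAC 155746 and H1 ATAC 189982, on chromosomes 1 to 22 and X.

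Overlaps were computed with Python 3.11.15, numpy 2.4.6, pandas 2.3.3 and scipy 1.17.1. Where several regions overlapped, the nearest summit and the highest fold enrichment were taken. Gene starts came from the RefSeq promoter table, or both ends of genes without an entry (15812 of 19974 protein-coding genes, 79.2%, had one). CRIPTO stands for TDGF1. Functions were tested on simulated data, with 0 errors in 400 overlap counts. Each deposited list is a single call for its group, so no test was made. Named regions and genes were the 10 strongest by the lowest percentile, the 10 strongest by HFFc6 CTCF, the 10 genes holding most regions, the members of 17 gene lists, and 8 sequences, none from chromosome 8. The members and lists were chosen with earlier results of these data known. Alternatives changed the overlap, peak threshold, width, list length, start window, summit choice and motif.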

Additional observations from a re-analysis of the deposited data

Results flagged for a closer look

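Outside the chromosomes used above, the HFFc6 CTCF list held 130 regions on unplaced scaffolds, and 32 of them met a region of each of the other 3 lists. They drew attention because they belong to data that no comparison above used. No control list exists for them, and their genes were not analysed here.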

How the results depend on the processing

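No paired analysis was possible because each list is a single call for its group and its columns carry no replicate number. With an overlap of 50% of the region, 11902 regions remained (14.5% of HFFc6 CTCF regions), 48.4% at starts, 28.9% in genes and 22.6% between genes. The median summit distances were then 90 bp to hESC-named CTCF and 63 bp to H1 ATAC, the HFFc6 CTCF medians 10.5 at starts and 8.61 away, the hESC-named medians 10.1 and 15.2, and 29.2% of genes had a region. With −log10 q of at least 10, members were 39.7% of HFFc6 CTCF regions, 34.7% in genes and 25.5% between, with summit distances of 93, 44 and 55 bp (hESC-named CTCF, HFFc6 ATAC, H1 ATAC), HFFc6 CTCF medians 10.3 and 9.94, hESC-named medians 10.9 and 16.8, and 44.2% of genes. With 250 bp to either side of the summits, members were 33.6%, with 37.5% at starts, 36.4% in genes and 26.1% between, distances of 93, 44 and 57 bp, HFFc6 CTCF medians 9.88 and 9.21, a hESC-named median of 15.7 away from starts, and 50.1% of genes. With lists of equal length, members were 26.0%, with 48.3% at starts, 29.8% in genes and 21.9% between, HFFc6 CTCF medians 9.95 and 10.2, hESC-named medians 9.54 and 16.0, and 50.9% of genes. A window of 500 bp gave 37.8%, 36.9% and 25.3%, an HFFc6 CTCF median of 9.53 at starts and 55.8% of genes. A window of 2 kb gave 43.0%, 33.2% and 23.8%, an HFFc6 CTCF median of 9.32 and a hESC-named median of 9.20 at starts, and 59.9% of genes. Chosen after seeing the data, the use of known starts alone gave 32.6%, 41.9% and 25.5%, hESC-named medians of 8.84 and 14.9, and 59.9% of genes. The summit alone, also chosen then, gave 37.4% at starts. Taking the summit of the strongest overlapping region kept all medians within their counting intervals. The stricter motif was in 0.823% of windows inside members, and a looser one with 8 fixed bases in other places, chosen after seeing the data, in 8.06%. The looser one was in 4.24% of windows in HFFc6-only regions open in both lines and in 5.22% of open windows without CTCF. At a GC content of 65% or more it was in 9.95% inside members (9.25 to 10.7) and 7.75% of open windows without CTCF (5.54 to 10.7), intervals that overlap. Of 119 values for gene lists over 7 settings, 86 stayed within 1.5 times the main value and 33 did not. Read depth behind the lists is unknown, so the absence of a region cannot be told apart from low depth.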
